A study of Mus musculus with 30 samples.

Results

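The expression of 10 genes of MHC class I and class II antigen presentation was followed in the hippocampus of 30 male BALB/c mice. The genes were chosen by symbol: H2-K1, H2-D1, B2m, Tap1, Tap2 and Tapbp of the class I pathway, and H2-Aa, H2-Ab1, H2-Eb1 and Cd74 of the class II pathway. All 10 were among the 21412 genes with a value, and all 10 passed the filter on low values in each comparison. The 6 groups held 5 mice each, and the study asked how selenium in the feed bears on the levels and toxicity of methylmercury (MeHg). Mice of the Ctr group were given a diet to which only a cysteine stock had been added. The LD and HD groups were fed MeHg bound to cysteine at 0.28 and 5 mg per kg of feed. Se_Ctr, Se_LD and Se_HD mice received selenium, named selenium-methionine in the title of the series, alone or with the low or the high dose of mercury; their doses are not given in the sources used here. The mice without added selenium were obtained at 2 to 3 weeks of age, housed singly and fed the experimental diets for 11 weeks, and the labels give no age or feeding time for the selenium groups. Each library was made from the hippocampus of 1 mouse, and mice are named below by group and library number.

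MHC class I molecules carry peptides from inside the cell to its surface, where CD8+ T cells read them. The heavy chains H2-K1 and H2-D1 pair with beta-2-microglobulin (B2m), the peptides are pumped into the endoplasmic reticulum by the transporter made of Tap1 and Tap2, and tapasin (Tapbp) bridges that transporter and the waiting heavy chain. Class II molecules show peptides from endocytosed proteins to CD4+ T cells: H2-Aa and H2-Ab1 form the I-A molecule, H2-Eb1 is the beta chain of I-E, and Cd74, the invariant chain, fills the groove of new class II molecules until it is cut away by proteases. In healthy brain tissue class I transcripts are found at low to moderate levels in many cell types, including some neurons, whereas class II is largely carried by macrophages and dendritic cells at the borders of the brain and by activated microglia. Interferons induce both pathways.

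On the genome build of the files, NCBIM37, 8 of the 10 genes lay in the MHC on chromosome 17. H2-K1 (ENSMUSG00000061232) spanned chr17:34132962-34137278 and H2-D1 (ENSMUSG00000073411) chr17:35399675-35404444. Tapbp was annotated at chr17:34052844-34066235, Tap1 at chr17:34324498-34334170 and Tap2 at chr17:34340472-34353266. The class II genes H2-Ab1 (chr17:34400154-34406363) and H2-Aa (chr17:34406276-34424772) lie tail to tail on opposite strands and share 88 bases, 17 of them in exons of both, and H2-Eb1 followed at chr17:34442828-34453144. B2m (ENSMUSG00000060802) was outside the MHC, at chr2:121973422-121978819, within the span of Patl2 on the other strand but with no exon base in common. All 10 were annotated as protein coding, and Cd74 (ENSMUSG00000024610) was the remaining gene outside the MHC.

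Promoters are shown for the 2 heavy chains and for B2m, which pair in the class I molecule, and for H2-Aa of the class II pathway. RefSeq on GRCm38.p6, another build than that of the files, gave a promoter for 7 of the 10 genes (none for Tap2, H2-Ab1 and Cd74). Each run holds 300 bases on the strand of the gene, of which 250 lie before the annotated start. Capitals mark 4 searched motifs on either strand: ATTGG (the core of the Y box), CTGATTGG (the class II form of the Y box, which contains the former), AANNGAAA (the core bound by interferon regulatory factors) and GGATTCCC (the core of enhancer A of class I genes).
H2-K1, chr17:34000298-34000597, minus strand: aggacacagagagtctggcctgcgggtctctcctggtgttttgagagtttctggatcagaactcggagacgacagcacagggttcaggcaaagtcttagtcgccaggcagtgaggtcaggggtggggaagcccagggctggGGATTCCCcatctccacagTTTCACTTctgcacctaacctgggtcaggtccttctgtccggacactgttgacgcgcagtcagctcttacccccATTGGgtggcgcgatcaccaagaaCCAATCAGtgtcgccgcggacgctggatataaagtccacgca
H2-D1, chr17:35262844-35263143, plus strand: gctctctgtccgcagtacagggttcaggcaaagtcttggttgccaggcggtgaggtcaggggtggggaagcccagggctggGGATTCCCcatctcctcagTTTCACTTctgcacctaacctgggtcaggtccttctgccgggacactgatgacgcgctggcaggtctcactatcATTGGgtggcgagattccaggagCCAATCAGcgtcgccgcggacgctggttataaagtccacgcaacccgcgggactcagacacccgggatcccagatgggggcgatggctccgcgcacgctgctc
B2m, chr2:122147437-122147736, plus strand: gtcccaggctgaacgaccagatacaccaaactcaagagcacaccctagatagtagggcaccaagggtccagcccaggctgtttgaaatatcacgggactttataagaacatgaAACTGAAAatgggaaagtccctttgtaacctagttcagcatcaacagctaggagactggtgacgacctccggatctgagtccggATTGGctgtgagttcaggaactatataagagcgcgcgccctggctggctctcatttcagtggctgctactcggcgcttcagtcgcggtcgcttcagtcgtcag
H2-Aa, chr17:34287774-34288073, minus strand: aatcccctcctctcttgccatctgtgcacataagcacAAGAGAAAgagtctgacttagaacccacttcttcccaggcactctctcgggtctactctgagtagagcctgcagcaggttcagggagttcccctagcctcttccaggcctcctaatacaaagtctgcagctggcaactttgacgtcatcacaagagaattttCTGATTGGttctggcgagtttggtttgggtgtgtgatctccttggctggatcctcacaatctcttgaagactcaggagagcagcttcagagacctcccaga
H2-K1 and H2-D1 each held 1 match to GGATTCCC and 1 to AANNGAAA, while B2m held 1 match to AANNGAAA and 1 to ATTGG. CTGATTGG was present in H2-Aa and in H2-Eb1 and also, on the other strand, in H2-K1, H2-D1 and Tap1. Among 27025 promoters of this length, 37.9% held ATTGG, 24.2% AANNGAAA, 4.32% CTGATTGG and 1.04% GGATTCCC. A match is a description of the letters and no evidence of binding.

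Between 5768208 and 11510521 reads per library were counted on genes, with a median of 9351470. Levels are normalized counts, that is, reads divided by a size factor per library, so that 1 read was worth between 0.739 and 1.70 normalized counts. HD mouse 21 stood apart: its median correlation with the other 29 libraries across genes was 0.955, against 0.971 to 0.986 for the others. The summed level of 18 interferon response genes was 3646 in this mouse and 911 to 1471 in the other 29. All 14 microglia markers and all 8 markers of hippocampal neurons had values. Of the lymphocyte markers, 3 B cell genes and 4 of 8 T cell genes had a value, all with a mean under 10 normalized counts, and Cd3e and Cd8a were among the T cell genes without one.

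Of the class I genes B2m, Tapbp and H2-D1 were well measured, and the class II genes were counted sparsely. H2-K1 had as few as 17 reads in a library and Tap2 as few as 18. B2m had at least 233 reads in each library and Tapbp at least 172, whereas Tap1 was counted with 8 to 72 reads. H2-Aa reached at most 25 reads and was at 0 in 2 of the 30 libraries (HD mouse 15 and Se_LD mouse 23), and H2-Eb1 had 1 to 13 reads. Cd74, the most abundant class II member, had up to 56 reads and was at 0 in Se_LD mouse 5. A difference of a few reads therefore moves the class II values by a large factor, and the intervals below must be read with this in mind. Divided by exon length, the mean level in Ctr mice was highest for B2m (395 ± 65.1 normalized counts per kb, SD, n = 5), then Tapbp (91.7 ± 8.82), H2-D1 (50.1 ± 12.6) and H2-K1 (17.4 ± 5.23). Cd74 followed at 13.3 ± 10.5 and Tap2 at 10.7 ± 1.86 per kb, and the ranges of 1 SD around H2-K1, Cd74 and Tap2 overlapped. The levels per kb of H2-Ab1 (5.12 ± 2.09), H2-Eb1 (4.46 ± 2.67), H2-Aa (4.34 ± 3.53) and Tap1 (3.45 ± 0.747) overlapped within 1 SD.

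**Figure D1:**
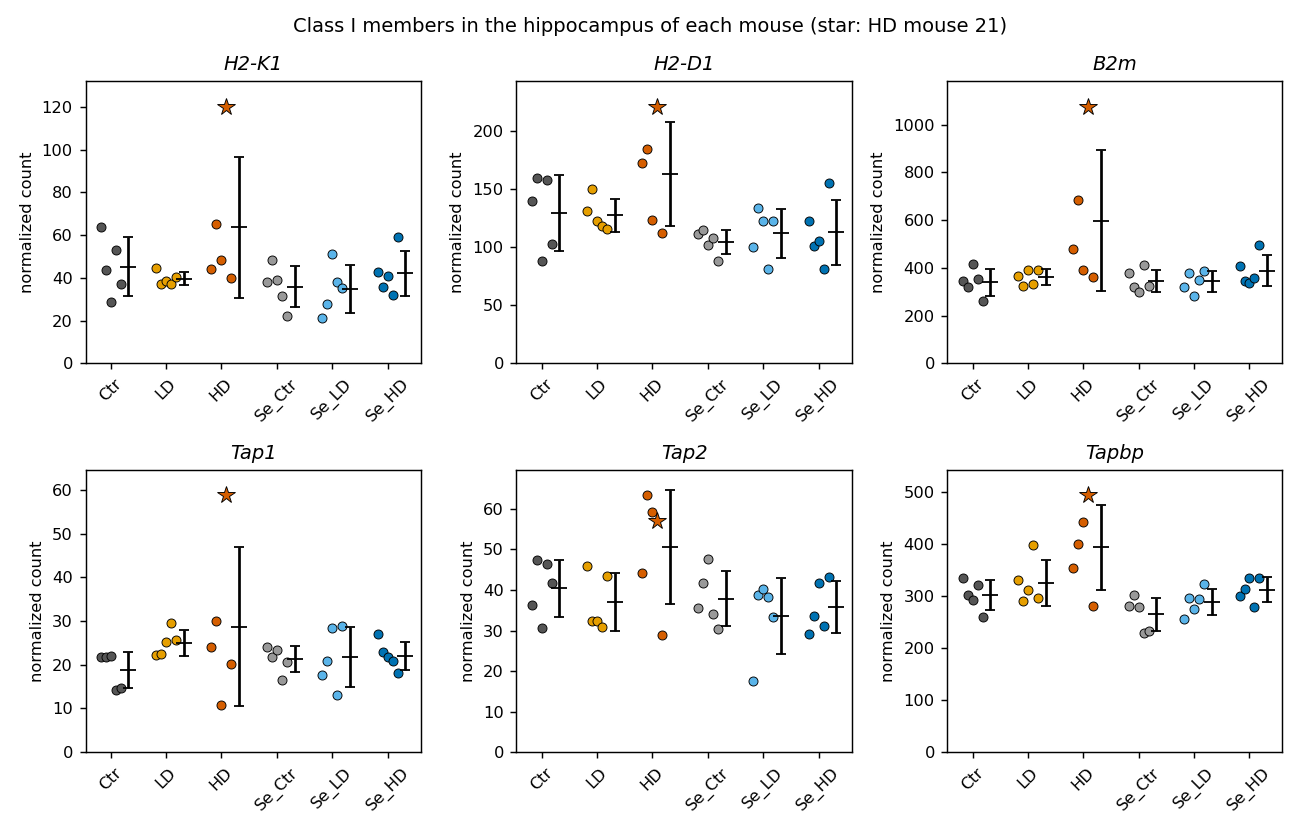
Normalized counts of the 6 class I genes (vertical axes, from 0) in each of the 30 mice, by group, with the mean ± SD of 5 mice in black and HD mouse 21 as a star. HD mouse 21 is the highest of all 30 mice for H2-K1, H2-D1, B2m, Tap1 and Tapbp, and HD mouse 9 for Tap2.

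In mice fed the high dose without added selenium, B2m and Tapbp rose among the class I genes. The other 4 had higher means that did not pass the test. The rule for a change followed the order of tests used in the study: an unadjusted p under 0.05 in the F test of the 3 groups of a diet, and then in the contrast. By this rule 2 of the 10 genes were higher in HD than in Ctr and none lower, against 5.09% of all 20031 genes tested in either direction and 3.36% higher. Only B2m had an exact permutation p under 0.05, as did 7.35% of all genes, and all 10 genes overlapped between the groups, whereas 1.71% of all genes did not overlap (0.978% higher in HD). The median log2 fold change was 0.34 for the 10 genes and 0.01 for all genes. In tissue RNA a change in the number of cells that carry a transcript and a change in RNA per cell cannot be told apart.

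B2m, the light chain shared by all classical class I molecules, was measured at 345, 320, 417, 354 and 263 normalized counts in Ctr mice 1, 7, 13, 19 and 25. In HD mice 3, 9, 15, 21 and 27 it reached 478, 684, 391, 1075 and 360. Mice 3, 9 and 21 lay above all Ctr mice, and mice 15 and 27 within their range. The log2 fold change was 0.71 (SE 0.21, 95% interval 0.27 to 1.14) with a Benjamini-Hochberg adjusted p of 0.224 by limma. An exact two-sided permutation test of 5 against 5 mice gave p = 0.0397, which no longer passed 0.05 when Ctr mouse 1, 7, 19 or 25 or HD mouse 9 or 21 was left out. The adjusted p of B2m was 0.133 with edgeR and 0.0446 with DESeq2 on the recovered reads. Without HD mouse 21 the log2 fold change was 0.46 and the rule was still met, as it was when any other Ctr or HD mouse was left out, with values up to 0.86.

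Tapbp, which holds the heavy chain at the peptide transporter, stood at 334, 303, 293, 322 and 259 normalized counts in the Ctr mice in the same order. HD mice 3, 9, 15 and 21 gave 354, 401, 442 and 494, each above every Ctr mouse, and HD mouse 27 gave 281. The log2 fold change was 0.36 (SE 0.13, adjusted p = 0.411 by limma), and the exact permutation p was 0.0556. This call was lost when Ctr mouse 7, 13 or 25 or HD mouse 9, 15 or 21 was left out, at 0.27 to 0.36, and with limma without a trend. Zbtb22, on the same strand, shares 61 exon bases with Tapbp.

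The heavy chain H2-K1 was measured at 64.0, 43.5, 28.9, 52.9 and 37.2 normalized counts in Ctr mice and 44.2, 65.0, 48.4, 120.0 and 40.1 in HD mice. Only mice 9 and 21 were above the Ctr range, and the log2 fold change of 0.41 (95% interval −0.14 to 0.95) did not pass the test. H2-D1 stood at 140, 160, 88.5, 158 and 102 normalized counts in Ctr and 173, 185, 124, 221 and 112 in HD mice, so that mice 3, 9 and 21 exceeded the Ctr range. Its log2 fold change was 0.32 (95% interval −0.07 to 0.72), which also did not pass and ran from 0.19 to 0.44 when 1 mouse was left out.

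Neither transporter subunit met the rule. Tap1 was measured at 21.7, 21.7, 22.1, 14.2 and 14.7 normalized counts in Ctr and at 24.1, 30.0, 10.8, 58.8 and 20.1 in HD mice, of which mouse 15 was the lowest and mouse 21 the highest of all 30 mice. Tap2 gave 36.2, 47.3, 30.6, 46.3 and 41.7 in Ctr mice. In HD mice it was at 44.2, 63.3, 59.2, 57.1 and 28.8, with mice 9, 15 and 21 above and mouse 27 below the Ctr range. The log2 fold changes, 0.40 for Tap1 (95% interval −0.27 to 1.08) and 0.28 for Tap2 (−0.19 to 0.75), did not pass the test. Without HD mouse 27, that of Tap2 was 0.46 and met the rule. Without HD mouse 21, those of Tap1 and H2-K1 were 0.10 and 0.15.

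None of the 4 class II genes met the rule in HD against Ctr mice with limma. Cd74 had 12.1, 8.95, 23.8, 42.5 and 6.76 normalized counts in Ctr mice and 30.5, 20.0, 12.1, 31.0 and 16.6 in HD mice, within the Ctr range throughout, with a log2 fold change of 0.43 (95% interval −0.67 to 1.53) that ran from 0.17 without Ctr mouse 25 to 0.79 without Ctr mouse 19. H2-Aa was at 2.42, 7.67, 11.9, 18.9 and 2.25 in Ctr and at 15.3, 10.8, 0, 20.4 and 4.36 in HD mice. H2-Ab1 spanned 3.62 to 13.2 in Ctr mice and 2.69 to 27.8 in HD mice, with a median of 8.51 and 7.50, and its highest HD value was that of mouse 21. H2-Eb1 spanned 1.70 to 9.45 in Ctr and 1.34 to 10.8 in HD mice. The fitted log2 fold changes of these 3 genes lay between −0.03 and −0.02, while edgeR and DESeq2 gave positive values (0.27 and 0.26 for H2-Aa), so no direction can be given. The interval of H2-Aa, −1.45 to 1.39, allows a change of either sign.

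**Figure D2:**
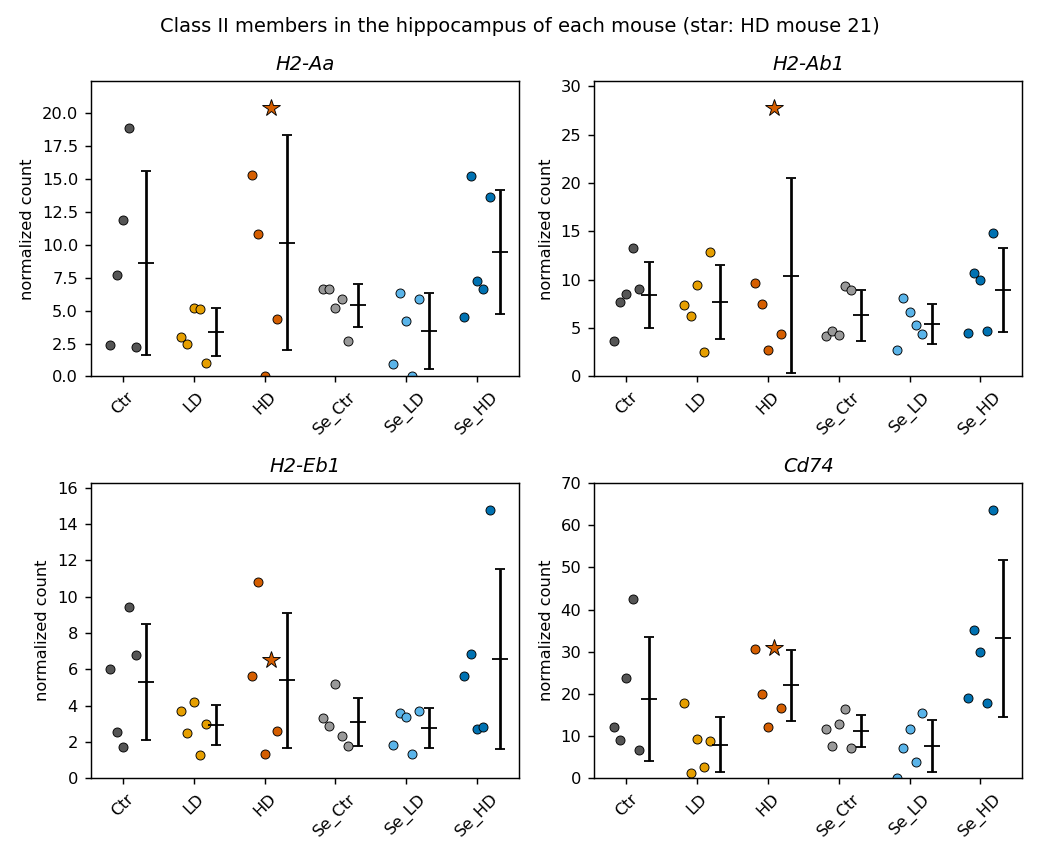
Normalized counts of the 4 class II genes (vertical axes, from 0) in each of the 30 mice, by group, with the mean ± SD of 5 mice in black and HD mouse 21 as a star. Cd74 in all 5 Se_HD mice (17.9 to 63.7) is above all 5 Se_Ctr mice (7.17 to 16.4), and the other 3 genes overlap between these groups.

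At the low dose Cd74 was lower than in Ctr mice, and none of the class I genes met the rule with limma. B2m stood at 367, 326, 393, 331 and 392 normalized counts in LD mice 2, 8, 14, 20 and 26, all within the Ctr range, with a log2 fold change of 0.10 (95% interval −0.34 to 0.54). Of the 10 genes 1 met the rule, against 1.46% of all genes tested, and it was Cd74. It was measured at 17.8, 1.24, 9.41, 2.58 and 8.90 normalized counts, with mice 8 and 20 below all Ctr mice and the others within their range. The log2 fold change was −1.23 (SE 0.53) with an adjusted p of 0.999 by limma, and the exact permutation p was 0.143. An exact p under 0.05 was found for 1 of the 10 genes, Tap1, and for 2.96% of all genes. The call was lost without Ctr mouse 13 or 19, without LD mouse 8 or 20, and with limma without a trend, at −1.23 to −0.82. The means of H2-Aa, H2-Ab1 and H2-Eb1 were also lower in LD than in Ctr mice, without passing the test, at log2 fold changes of −0.91 (95% interval −2.33 to 0.51), −0.16 and −0.57.

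For Tap1 the tests differed at the low dose. Its 22.2, 22.4, 25.1, 29.6 and 25.7 normalized counts in LD mice all lay above the 5 Ctr values, of which 22.1 was the highest, and the exact permutation p was 0.00794, the smallest that 5 against 5 mice can give. Groups that did not overlap were seen for 1 of the 10 genes here and for 0.399% of all genes tested. In the fit across all genes the log2 fold change of 0.41 (SE 0.32) did not meet the rule. The LD values spanned 18 to 30 reads and the Ctr values 13 to 18, and HD mouse 15 lay below both groups. When LD mouse 14, 20 or 26 was left out, the exact p no longer passed 0.05, although the remaining LD mice still lay above every Ctr mouse. Leaving out any 1 of the LD or Ctr mice gave a log2 fold change of 0.32 to 0.47.

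Between the doses, 2 of the 10 genes were higher in HD than in LD, against 4.49% of all genes tested. These were B2m, with a log2 difference of 0.60 (SE 0.21, adjusted p = 0.475 by limma, exact permutation p = 0.0714), and Cd74, with 1.66 (SE 0.53, adjusted p = 0.371, exact permutation p = 0.0238). Without HD mouse 21 the difference for B2m was 0.36 and still met the rule. The call for Cd74 was lost without LD mouse 8 or 20, at 1.25 and 1.42. H2-K1 had a log2 difference of 0.55 with a contrast p of 0.0490 by limma but an F test p of 0.119, so it did not meet the rule. Of the 10 genes 2, H2-K1 and Cd74, had an exact permutation p under 0.05, against 6.11% of all genes. This count ran from 0 to 6 when 1 mouse was left out. HD and LD were each compared with the same 5 Ctr mice.

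On the selenium diet Cd74 and the class I gene Tapbp were higher at the high dose. By the same rule these were 2 of the 10 genes, against 2.06% of all 19679 genes tested in either direction. Cd74 was measured at 11.6, 7.60, 13.0, 16.4 and 7.17 normalized counts in Se_Ctr mice 4, 10, 16, 22 and 28. Se_HD mice 6, 12, 18, 24 and 30 gave 19.1, 35.1, 30.0, 17.9 and 63.7, so that all 5 lay above all 5 Se_Ctr mice. The log2 fold change was 1.40 (SE 0.54, 95% interval 0.27 to 2.53), with an adjusted p of 0.9996 by limma. The exact permutation p was 0.00794, and 1 of the 10 genes and 4.72% of all genes had one under 0.05. Groups that did not overlap were found for 1 of the 10 genes and for 0.798% of all genes tested in this comparison. The rule was not met without Se_HD mouse 30, at 1.13, or with a pseudocount of 0.1, at 1.47. The adjusted p on recovered reads was 0.817 with edgeR and 0.348 with DESeq2.

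Tapbp was the other gene to meet the rule on the selenium diet, at 281, 302, 280, 229 and 234 normalized counts in Se_Ctr mice and 301, 313, 335, 279 and 335 in Se_HD mice. Mice 12, 18 and 30 exceeded all Se_Ctr mice. The log2 fold change was 0.24 (SE 0.09, adjusted p = 0.9996 by limma), and the exact permutation p was 0.0556. The call was lost without Se_Ctr mouse 22 or 28 or any 1 of Se_HD mice 6, 12, 18 and 30, and also with edgeR, with DESeq2, with all 30 libraries in the fit, with runs of 6 library numbers as covariate and with limma without a trend, at values of 0.19 to 0.25. Its level in Se_HD mice was close to that in Ctr mice, whose values ran from 259 to 334.

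B2m was at 379, 319, 301, 410 and 323 normalized counts in Se_Ctr and 406, 344, 338, 359 and 494 in Se_HD mice, a log2 fold change of 0.16 (95% interval −0.07 to 0.39) that did not pass the test. H2-K1 (0.24, 95% interval −0.25 to 0.73), H2-D1 (0.08, −0.24 to 0.40), Tap1 (0.06, −0.40 to 0.52) and Tap2 (−0.08, −0.52 to 0.36) had no detectable difference at this depth and number of mice. The other class II genes had higher means in Se_HD than in Se_Ctr mice without passing the test. H2-Aa was at 6.62, 6.65, 5.19, 5.86 and 2.69 normalized counts in Se_Ctr and at 4.49, 15.2, 7.26, 6.61 and 13.7 in Se_HD mice, a log2 fold change of 0.63 (SE 0.48). For H2-Eb1 the value of Se_HD mouse 30, 14.8, was the highest of all 30 mice, and the other 4 Se_HD mice lay between 2.72 and 6.86. The log2 fold change of H2-Eb1 was 0.72 (SE 0.39), and it met the rule only without Se_HD mouse 18 or 24, with values of 0.92 and 0.91, and was at 0.40 without mouse 30. H2-Ab1 had a log2 fold change of 0.39 (SE 0.36).

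None of the 10 genes met the rule in Se_LD against Se_Ctr mice with limma, against 1.46% of all genes tested, and none had an unadjusted p under 0.05 with limma, edgeR or DESeq2. None had an exact permutation p under 0.05 (3.44% of all genes) and all overlapped between the groups (0.503% of all genes did not). Cd74 was measured at 0, 7.22, 11.7, 3.95 and 15.5 normalized counts in Se_LD mice 5, 11, 17, 23 and 29, with a log2 fold change of −0.93 (95% interval −2.06 to 0.20). It met the rule when Se_LD mouse 17 or 29 was left out, at −1.19 and −1.29, as H2-Aa did without mouse 11 or 29, at −1.10 and −1.08. Without Se_LD mouse 5 the value of Cd74 was −0.28, and without mouse 23 that of H2-Aa was −0.39. Se_LD mouse 5 had the lowest mean level of both the class I and the class II genes of all 30 mice, with a Tap2 value of 17.6 and 6 reads in all over the 4 class II genes.

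**Figure D3:**
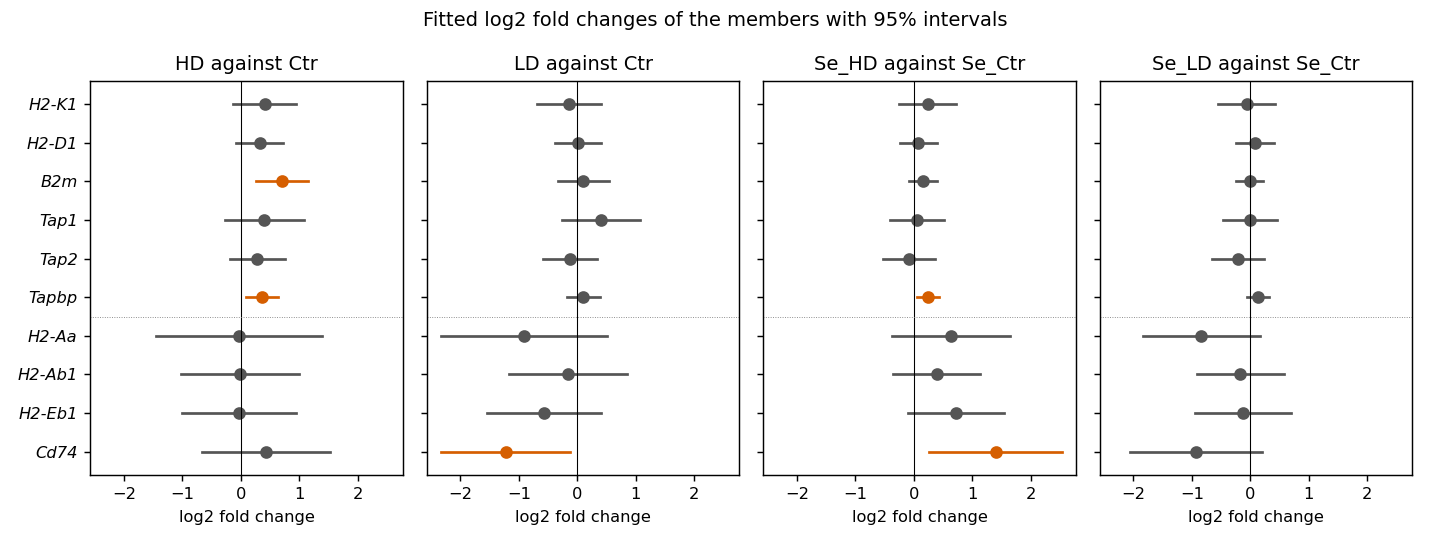
Fitted log2 fold changes of the 10 genes (points) with 95% intervals (lines) for both doses against the control of the same diet, where orange marks genes that met the rule on unadjusted p. The intervals of the class II genes, below the dotted line, are wider than those of B2m and Tapbp in all 4 panels.

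Selenium alone was compared with the unsupplemented control in a fit of all 30 libraries, in which a contrast p under 0.05 was the rule. None of the 10 genes differed between Se_Ctr and Ctr mice with limma, edgeR or DESeq2, while 4.00% of all 21383 genes did with limma. Of the 10 log2 differences 8 were below 0, with a median of −0.28 against 0.00 for all genes, from −0.50 for H2-Eb1 (95% interval −1.39 to 0.38) to 0.18 for Tap1. H2-D1, at −0.27, met the rule only without Ctr mouse 13, the Ctr mouse with its lowest value, at −0.40.

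The effect of the high dose was then compared between the diets as an interaction contrast, the log2 fold change with added selenium minus that without. B2m alone met the rule, 1 of 10 genes against 4.77% of all genes tested, at −0.55 (SE 0.26, 95% interval −1.07 to −0.03, adjusted p = 0.997 by limma). Without HD mouse 21 this difference was −0.30 and the call was lost, as it was when Ctr mouse 7 or 25, HD mouse 9, Se_Ctr mouse 4 or 22, or Se_HD mouse 12, 18 or 24 was left out, at −0.53 to −0.46, or with limma without a trend. In the same contrast 12 of 14 microglia markers were lower and none higher, with a median of −0.75, and their part in the B2m result was not tested. For Cd74 the difference was 0.97 (95% interval −0.70 to 2.63) and for Tapbp −0.12 (−0.45 to 0.21).

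The mice with the highest class I levels were in part others than those with the highest class II levels. HD mouse 21 had the highest mean centred log2 level of the class I genes, 1.08, followed by HD mouse 9 at 0.60, and the other 28 mice lay between −0.52 and 0.25. For the class II genes the highest means were those of Se_HD mouse 30 (1.58), HD mouse 21 (1.41), Ctr mouse 19 (1.36) and Se_HD mouse 12 (1.05). Ctr mouse 19 had the highest level of all 4 class II genes within its group, yet its class I mean was 0.06. HD mouse 15 had the third lowest class II mean, −1.17, beside a class I mean of 0.08.

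**Figure D4:**
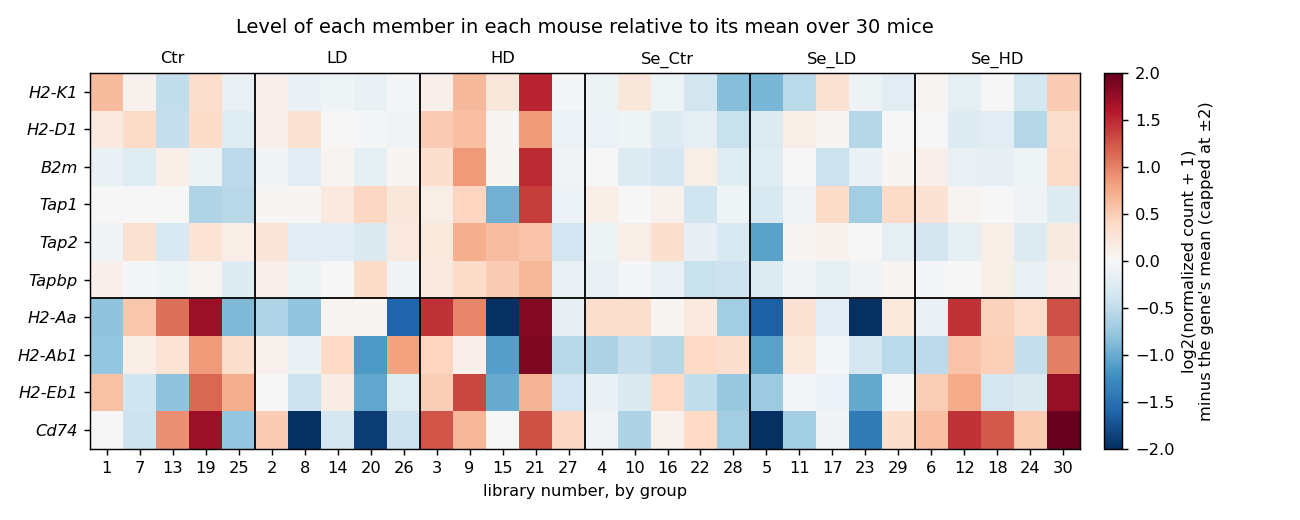
Log2(normalized count + 1) of each gene minus its mean over 30 mice (colour, capped at 2 units either side of 0), with mice as columns by group and library number and class I genes above the black line. Among the class I rows the deepest red is in HD mouse 21, while high class II levels are spread over Ctr mouse 19, HD mice 3, 9 and 21 and Se_HD mice 12 and 30.

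Beyond B2m and Tapbp, no gene of the class I lists met the rule in HD against Ctr mice with limma. Of 14 genes that supply and load peptides for class I, a list that holds B2m, Tap1, Tap2 and Tapbp, 2 were higher in HD than in Ctr mice (3.36% of all genes) and none lower, and both were members. Psme2, a subunit of the proteasome activator PA28, had a log2 fold change of 0.39 (SE 0.15), and Psmb8, a subunit of the immunoproteasome, 0.96 (SE 0.41) on 2 to 44 reads, and neither met the rule. None of 14 nonclassical class I genes met the rule in this comparison with limma. In HD against LD mice 1 of 14 nonclassical genes and 2 of 14 supply and loading genes, B2m among them, met the rule, against 4.49% of all genes. H2-T10, a nonclassical class I gene, and Nlrc5, the coactivator of class I promoters, were higher, with log2 differences of 0.61 (SE 0.23) and 1.13 (SE 0.42). Cd1d1, which presents lipids, was at 7.50 to 94.7 normalized counts in HD mice against 3.84 to 8.51 in Ctr mice, with the top value in mouse 21. H2-T24 had a log2 fold change of 0.49 (SE 0.23). Because H2-K1 and H2-D1 resemble their neighbours, 1.22% and 5.56% of their 75-base windows also occurred in protein-coding transcripts of other genes. The other 8 genes had none. Matches on the opposite strand were not searched. Tap2 shares 165 exon bases with Gm20496 and 533 with Gm15821 on that strand, genes with means of 0.39 and 1.12 normalized counts.

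Of 9 genes of class II transcription and processing, 5 were higher and 1 lower in HD than in Ctr mice, where 5.09% of all genes and 13 of 14 microglia markers met the rule. Ctss, Ctsl, Lgmn, Ifi30 and an entry of Ciita rose and Rfxap, a subunit of the RFX complex, fell. Ctsl and Lgmn are lysosomal proteases, at log2 fold changes of 0.44 (SE 0.15) and 0.40 (SE 0.17), and Ifi30 reduces disulfide bonds of antigens, at 0.66 (SE 0.28). Ctss, the protease that trims Cd74 to its last fragment, had the lowest adjusted p, 0.0497 by limma, with a log2 fold change of 1.09 (SE 0.22) and levels of 564 to 1837 normalized counts in HD against 403 to 446 in Ctr mice. With limma without a trend 0 of all genes had an adjusted p under 0.05 in this comparison, against 26 with the trend. Ciita, the coactivator of class II promoters, is in the table under 2 identifiers. The called one (ENSMUSG00000075404) had 1 to 8 reads in HD and 0 to 3 in Ctr mice, and the other had a log2 fold change of 0.31 (SE 0.37). In Se_HD mice none of these 9 genes met the rule with limma, and the log2 fold change of Ctss was 0.16 (SE 0.08). The part of the microglia genes in these values was not tested.

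Of the 10 class II molecules tested, the 4 members included, none met the rule in HD against Ctr with limma. Cd74, H2-DMb2 and H2-Ea-ps were higher both in HD against LD mice (3 of 10, and 4.49% of all genes) and in Se_HD against Se_Ctr mice (3 of 10, and 2.06% of all genes). In the latter the log2 fold changes were 1.40 for Cd74 and 0.97 (SE 0.36) for H2-DMb2. H2-DMb2 encodes a beta chain of the peptide editor DM, and its levels, at 1 to 10 reads in the selenium mice, were low. In HD mice H2-DMb2 had a log2 fold change of 1.06 (SE 0.54) and H2-Ob, a chain of the DM inhibitor, 0.70 (SE 0.56). H2-Ea-ps was singled out after its values were seen, as the partner of H2-Eb1: the reference strain has it as a pseudogene, whereas BALB/c mice make the I-E alpha chain. It was at 8.27, 8.55, 12.1, 9.38 and 2.69 normalized counts in Se_Ctr and 24.7, 25.2, 12.7, 5.67 and 42.1 in Se_HD mice. At the low dose without added selenium it was lower than in Ctr mice, like Cd74, with a log2 fold change of −1.45 (SE 0.62).

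Markers of other cell types moved with some of these results. Microglia, the resident macrophages of the brain, were marked by 14 genes, and 13 of them rose in HD mice against Ctr mice (median log2 fold change 0.77). Their summed level ran from 3742 to 8109 normalized counts in HD and from 2927 to 3214 in Ctr mice, and HD mice 9 and 21, which had the highest class I levels, also had the highest microglia sums (7436 and 8109). In Se_HD mice, where none of the 14 microglia genes met the rule with limma, the sum ran from 3106 to 3649 against 2864 to 3636 in Se_Ctr mice. Interferon response genes were higher for 3 of 18 in HD against Ctr mice (Irf8, Bst2 and Gbp2) and for 1 of 18 in Se_HD mice (Ifit3), where the rule was met by 5.09% and 2.06% of all genes in either direction. In HD mouse 21 the interferon sum was 3646 normalized counts. Their part in the class I result was not tested.

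Cd74 and the class II genes are expressed by macrophages of the brain borders, and none of 8 markers of these cells met the rule in HD against Ctr or Se_HD against Se_Ctr mice with limma. In the comparisons with LD mice Cd74 was called, as were 1 of 8 border macrophage (Ms4a7), 1 of 6 dendritic cell (Cd209a) and 1 of 4 T cell markers (Lat). These markers were lower in LD than in Ctr and higher in HD than in LD mice, where 1.46% and 4.49% of all genes met the rule. Their log2 values in LD against Ctr were −1.31 (SE 0.48), −1.69 (SE 0.54) and −0.84 (SE 0.35). The medians of the whole lists were −0.17, −0.02 and −0.57, against 0.00 for all genes. The summed border macrophage level was 49.1 to 148.2 normalized counts in Se_HD mice and 51.1 to 91.2 in Se_Ctr mice. It was 52.5 in HD mouse 15, which had few class II reads, and 145.7 in Se_HD mouse 30 and 135.1 in Ctr mouse 19, which had many, but LD mouse 8, with 10 class II reads, had 115.7 and Se_HD mouse 6, with the highest sum, had a class II mean of 0.11. Choroid plexus markers, a sign of how much of that tissue was carried along in dissection, varied from 311.9 in Se_LD mouse 5 to 37690 in Se_LD mouse 29. Both Se_LD mice with the lowest class II means, 5 and 23, had low choroid plexus sums (311.9 and 1097), but HD mouse 15 had 29610 and LD mouse 26, with a class II mean of −0.36, had 593.2. None of the 8 choroid plexus genes met the rule in either high dose comparison with limma. Their median log2 fold change was 1.38 in HD against Ctr and 0.73 in Se_HD against Se_Ctr, where the mean sums were 24830 and 14590. Their part in the class II results was not tested. Among the B cell markers Cd22, which microglia can also express, was higher in HD mice at 0 to 15.5 normalized counts against 0 to 1.28 in Ctr mice, and none of 4 T cell or 6 dendritic cell genes met the rule in HD against Ctr mice with limma.

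**Figure D5:**
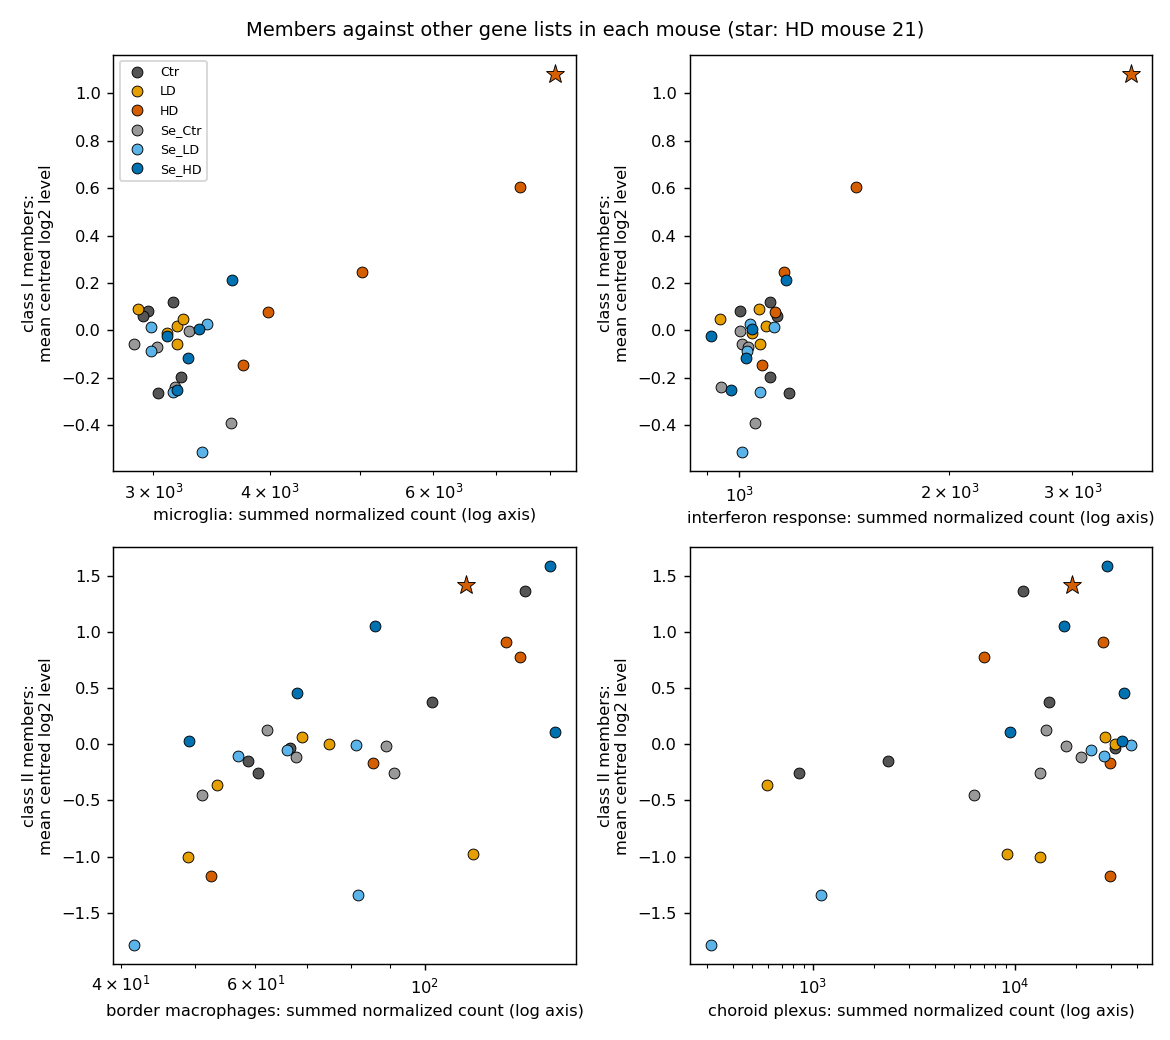
Mean centred log2 level of the 6 class I genes (upper panels) and the 4 class II genes (lower panels) in each mouse against the summed normalized count of a marker list (log axes), coloured by group, with HD mouse 21 as a star. HD mice 9 and 21 are the highest for the class I genes and for microglia, and the 2 Se_LD mice at the lower left of the choroid plexus panel are mice 5 and 23.

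Over the 30 mice, the genes whose log2 level was most like the class I mean, among the 14270 genes whose mean was 10 normalized counts or more, were Arpc1b (r = 0.90), Col16a1 (0.89), Ctsb (0.88), Ctsh (0.88) and Anxa5 (0.87). After HD mice 21 and 9, the 2 farthest from the median, were left out, their r fell to between 0.59 and 0.71. Those most like the class II mean were A430107O13Rik (r = 0.84), Serping1 (0.82), Efemp1 (0.80), Apod (0.79) and Fam180a (0.78), at 0.70 to 0.77 without Se_LD mouse 5 and Se_HD mouse 30. These values describe the same 30 libraries, so the genes share their group differences, depth and dissection.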

How the data were processed

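The authors sequenced hippocampus RNA of 30 male BALB/c mice from a stranded mRNA kit, in single-end reads of 75 bases. Per the methods and labels, reads were trimmed with Trim Galore 0.4.2, mapped with Hisat2 2.0.4 to NCBIM37, a build of the C57BL/6 strain, and assigned to genes by FeatureCounts. Settings for strand and for reads that map to several genes are not given in the sources used here, so reads of similar class I genes may have been lost or shared, and BALB/c alleles may map less well. The deposited signal values are counts that the authors divided by DESeq2 1.18.1 size factors after removing genes with a sum under 10 reads. In 100% of values a whole number of reads was recovered within 0.01 read. The factors equalled those recomputed by the median-of-ratios method.

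Values were fitted as log2(value + 1) with limma 3.58.1 (trend) in R 4.3.3 over the 15 libraries of a diet, or over all 30 across diets, with genes summing to at least 10 normalized counts in the fit. Fold changes are on this scale, which understates changes of low genes. P-values were adjusted by the Benjamini-Hochberg method across every gene in a fit, and 95% intervals use the moderated degrees of freedom. Exact two-sided permutation tests of 5 against 5 mice were run for the 10 genes in 6 comparisons (60 tests, 5 with p under 0.05, not adjusted). Groups were taken from the labels. The alternatives were other pseudocounts, filters and normalizations, limma without trend, edgeR 4.0.16 and DESeq2 1.42.0 on recovered reads, all 30 libraries in the fit, sets of 6 consecutive library numbers as a covariate, and leaving out each mouse. The fit was tested on simulated data. The text names the 10 genes, per list the 2 other genes with the lowest p in HD against Ctr (some are left out here), and the 5 genes most like each class. Other genes named from the lists were chosen after their values were seen, because they met the rule. The members, lists and tests were chosen with earlier results of these data known.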

Additional observations from a re-analysis of the deposited data

Results flagged for a closer look

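Among 60 sets of 5 mice (10 genes in 6 groups), 1 held a mouse far from the others, and chance gives about 1 in 20, that is 3.0. It was Tap2 in Se_LD mouse 5, at 17.6 normalized counts against 33.2 to 40.1 in the other Se_LD mice, where the gap to the nearest mouse made up 0.769 of the whole range on the log2 scale (critical value 0.71).

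In the difference of the high dose effect between the diets B2m met the rule, as did 4.77% of all genes. The difference was −0.55 on the log2 scale, with added selenium minus without. Its unadjusted p was under the threshold of 0.05, and its adjusted p was 0.997 by limma. HD mice 9 and 21 had the highest B2m levels, 684 and 1075 normalized counts, and without HD mouse 21 the difference was −0.30 and did not pass. The call was lost in 9 of the fits with 1 mouse left out, this one included, and with limma without a trend.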

How the results depend on the processing

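Limma without the trend left 1 of the 10 genes called in HD against Ctr (B2m), 0 in LD against Ctr, 1 in Se_HD against Se_Ctr and 0 for the difference between diets. In Se_HD against Se_Ctr 1 gene was called with a pseudocount of 0.1, with edgeR, with DESeq2, with all 30 libraries and with the library set as covariate. Quantile normalization gave 2 genes with an exact permutation p under 0.05 in HD against Ctr, instead of 1. Leaving out 1 mouse at a time gave 1 to 3 genes called in HD against Ctr, 0 to 1 in LD against Ctr, 1 to 4 in HD against LD, 0 to 3 in Se_HD against Se_Ctr, 0 to 2 in Se_LD against Se_Ctr, 0 to 1 in Se_Ctr against Ctr and 0 to 1 for the difference between diets. Counts by the exact test then ran from 0 to 3 in HD against Ctr, 0 to 1 in LD against Ctr, 0 to 6 in HD against LD (0 without HD mouse 21, 6 without HD mouse 27), 1 to 2 in Se_HD against Se_Ctr and 0 to 1 in Se_Ctr against Ctr. Over all genes, the fit of all 30 libraries called 1551 genes in HD against Ctr instead of 1019, 551 in LD against Ctr instead of 292, 252 in Se_HD against Se_Ctr instead of 405 and 166 in Se_LD against Se_Ctr instead of 288. Requiring a mean of 10 normalized counts, which tests fewer genes, gave 137 in LD against Ctr, 453 instead of 855 in Se_Ctr against Ctr and 640 instead of 1021 for the difference between diets. Se_LD against Se_Ctr had 553 without Se_LD mouse 17 and 436 without Se_Ctr mouse 28, and HD against LD had 580 instead of 899 without HD mouse 21. In Se_Ctr against Ctr 44.4% of called genes were higher, against 56.0% with quantile normalization and 32.7% with DESeq2.

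Signs changed for effects that had not met the rule. In HD against Ctr, H2-Aa was at 0.087 with a pseudocount of 10, 0.27 with edgeR and 0.26 with DESeq2, H2-Ab1 at 0.053, 0.32 and 0.32, and H2-Eb1 at 0.0008, 0.0006 and 0.0051 with a pseudocount of 10, edgeR and DESeq2. H2-D1 in LD against Ctr was at −0.033 with edgeR and −0.032 with DESeq2. Tap1 in Se_LD against Se_Ctr was at 0.0017, 0.063 and 0.058 with a pseudocount of 10, edgeR and DESeq2. Without 1 mouse at a time, log2 fold changes in HD against Ctr ran from −0.42 to 0.69 for H2-Aa, −0.44 to 0.30 for H2-Ab1 and −0.30 to 0.28 for H2-Eb1. In LD against Ctr they ran from −0.39 to 0.13 for H2-Ab1 and −0.12 to 0.094 for H2-D1. In Se_HD against Se_Ctr the ranges were −0.043 to 0.19 for H2-D1, −0.029 to 0.12 for Tap1 and −0.15 to 0.0048 for Tap2. In Se_LD against Se_Ctr they were −0.060 to 0.056 for B2m, −0.31 to 0.0084 for H2-Ab1, −0.25 to 0.037 for H2-Eb1, −0.21 to 0.10 for H2-K1, −0.12 to 0.15 for Tap1 and −0.28 to 0.0038 for Tap2. In Se_Ctr against Ctr they were −0.055 to 0.11 for B2m and −0.59 to 0.061 for H2-Aa, and for the difference between diets −0.054 to 1.05 for H2-Aa and −0.32 to 0.086 for H2-K1. The cause was not tested. Mice were not paired by replicate number, because the labels give none that ties mice of different groups. The sets of 6 consecutive library numbers, each with 1 mouse of every group, served as a covariate instead, with the count for Se_HD against Se_Ctr given above and 3 genes instead of 2 in HD against LD. The class II genes rest on few reads, 0 to 25 for H2-Aa.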
